A study of Arabidopsis thaliana with 6 samples.

Results

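The genes described are the methionine sulfoxide reductase B (MSRB) family of Arabidopsis thaliana, 9 genes in all, in seed pods (siliques) at a later and an earlier age. A member counted as measured when the platform annotation paired a probe set with that gene and no other. This held for 4 of the 9 genes, MSRB3, MSRB5, MSRB6 and MSRB9, each through 1 probe set, out of 13356 genes measured in this way on the array. MSRB1, MSRB2, MSRB4, MSRB7 and MSRB8 have no probe set of that kind and were not analysed here. The 9 genes were taken by family name and locus. The family itself was selected on the signal difference between old and young pods already known for MSRB5. The values of the members in that comparison are therefore given as a description. No p-value is printed for them, and whether they passed the threshold is given as a description too.

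The arrays were Affymetrix ATH1, 3 hybridised with RNA of old pods and 3 with RNA of young pods. Both groups were total RNA of Col-1 plants of stock N1033, grown in compost in a glasshouse under continuous light, and neither carried a labelled treatment or mutation. The labels give every sample the same growth stage, that of the first shattered silique, and the same tissue, mature and senescing siliques, and the titles alone name the age. How pod age was set, how many pods or plants went into a sample, or whether replicates came from separate plants is information the labels do not hold. The p-values below weigh the difference between the groups against the spread between these samples, which may therefore be technical.

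Methionine residues in proteins are readily oxidised to methionine sulfoxide, which exists in an S and an R form at the sulphur. MSRB enzymes reduce the R form and MSRA enzymes the S form, and both draw electrons from thioredoxins or glutaredoxins. In Arabidopsis, MSRB1 and MSRB2 are plastid proteins and MSRB3 has been placed in the endoplasmic reticulum. The reference annotation puts 8 of the 9 genes in a pair of runs on chromosome 4. MSRB3, MSRB4, MSRB5 and MSRB6 follow each other in the first run, with a pseudogene (AT4G04820) between MSRB4 and MSRB5 and a long noncoding RNA gene between MSRB5 and MSRB6, and MSRB7, MSRB8, MSRB9 and MSRB2 form the second. Neighbours in such runs can resemble each other in sequence, and how far these probe sets read only their own gene was not tested.

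The labelled tissue was checked against marker genes. All 6 measured genes of photosynthetic tissue were bright on every array, with a summed signal of 6210 to 6960 in old pods and 11800 to 14800 in young pods. The summed signal of 3 senescence markers was 381 to 685 in old pods and 113 to 135 in young pods, and that of 3 valve margin and dehiscence zone genes was 1500 to 1850 in old pods and 582 to 965 in young pods. Of these 3 only ADPG1 rose, at a log2 fold change of 3.97 (limma adjusted p = 0.000387), beside 0.27 for SPT and -0.24 for ALC, which did not pass. Markers of petals, sepals and roots had no named probe set and were not assessed. The ratios of 3 prime to 5 prime probe sets of the actin, GAPDH and ubiquitin controls, on the log2 scale, ran from 0.6 to 4.52 in old pods and from 0.52 to 3.46 in young pods, and the ranges of the groups overlapped for each control. The spiked hybridisation controls had a mean log2 signal of 10.41 on old replicate 1 and 10.13 on young replicate 1, and of 8.42 to 8.92 on the other 4 arrays, so replicate 1 stood apart in both groups alike.

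MSRB5 (AT4G04830) had the largest difference of the 3 members that were tested. Its signal was 816, 652.5 and 529.5 on old replicates 1, 2 and 3, against 87.8, 83.7 and 50.1 on young replicates 1, 2 and 3. Every old array lay above every young array, and the dimmest old array was 6.03 times as bright as the brightest young array. All 6 signals were above the 40th percentile of their array, the level used here to filter low signals. The mean signal was 666 ± 144 in old pods and 73.9 ± 20.7 in young pods (SD, n = 3 arrays each). The fitted difference was 9.15-fold, a log2 fold change of 3.19 with a standard error (SE) of 0.273 and a 95% interval of 2.56 to 3.83. In these whole pods, more cells of a type and more RNA per cell cannot be told apart.

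The MSRB5 difference was also read pair by pair. Between arrays of the same replicate number it was 9.29-fold, 7.8-fold and 10.6-fold for numbers 1, 2 and 3. Without old replicate 1 the log2 fold change was 3.04, and with replicates 2 and 3 alone it was 3.18. Of the 14277 probe sets tested, 1.29% had a log2 fold change at least as high as that of MSRB5, a value from the comparison that led to the choice of the gene.

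MSRB3 (AT4G04800), the first gene of the same run, was also brighter in old pods, by less. Its signal was 163.9, 131.4 and 159 on old replicates 1, 2 and 3, against 65.3, 75.6 and 31 on young replicates 1, 2 and 3. The groups did not overlap, and the gap between them was narrower than for MSRB5, with the dimmest old array 1.74 times as bright as the brightest young array. Young replicate 3 was the lowest of the 6 and the only array under its 40th percentile. The mean signal was 151 ± 17.5 in old pods and 57.3 ± 23.4 in young pods (SD, n = 3 arrays each). The log2 fold change was 1.49 (SE 0.338, 95% interval 0.71 to 2.27), which is 2.82-fold.

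The 3 pairs of equal replicate number spread more for MSRB3 than for MSRB5. The MSRB3 difference was 2.51-fold in the replicate 1 pair, 1.74-fold in the replicate 2 pair and 5.13-fold in the replicate 3 pair, which holds the dim young array. Without young replicate 3 the log2 fold change of MSRB3 was 1.10. A difference between the changes of MSRB3 and MSRB5 was not tested.

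**Figure D1:**
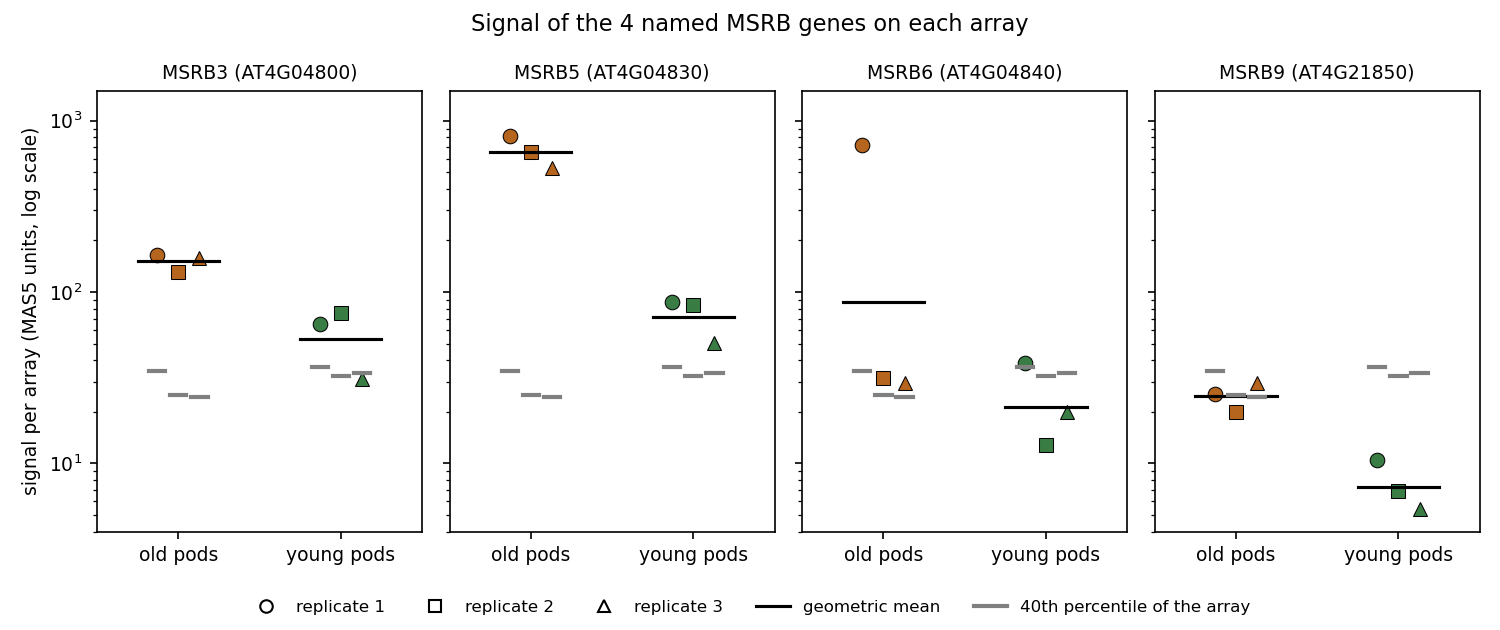
Signal of the 4 measured MSRB genes on each array, in MAS5 units on a log axis, with old pods left and young pods right in each panel. Symbols are the replicates, black lines the geometric means and grey lines the 40th percentile of each array; MSRB5 runs from 529.5 to 816 in old pods and from 50.1 to 87.8 in young pods, while the MSRB6 signal of 718.2 on old replicate 1 stands far above the other arrays.

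MSRB6 (AT4G04840), the last gene of the first run, did not separate the groups. Its signal was 718.2, 31.3 and 29.6 on old replicates 1, 2 and 3, against 38.3, 12.8 and 20 on young replicates 1, 2 and 3. One old array was high, and the other old arrays lay below the brightest young array. All old arrays but only 1 young array exceeded the 40th percentile of their array. That level was 34.5, 25.2 and 24.3 on old replicates 1, 2 and 3, and 36.5, 32.5 and 33.7 on young replicates 1, 2 and 3. The MSRB6 signals on old replicates 2 and 3 exceeded these lower levels but lay under the level of every young array. The log2 fold change was 2.03 with an SE of 1.15 and a 95% interval of -0.63 to 4.69. Without old replicate 1 it was 0.51, within the replicate 1 pair it was 4.23, and with replicates 2 and 3 alone it was 0.93.

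Such an excess of old replicate 1 over the other old arrays was uncommon but not limited to MSRB6. The MSRB6 signal on old replicate 1 was 22.9 times the higher of the other old signals, and 14 of the 14277 tested probe sets, MSRB6 included, had a ratio at least as high. In all, 65 tested probe sets were at least 10 times as bright on old replicate 1 as on either other old array. The corresponding numbers were 0 and 4 for old replicates 2 and 3, and 1, 0 and 1 for young replicates 1, 2 and 3.

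Seed genes also stood higher on old replicate 1 than on the other old arrays. Of 11 seed markers 5 had a named probe set, and all 5 had their highest old signal on that array. Their summed signal was 6600 on old replicate 1, against 633 and 620 on old replicates 2 and 3, and it was 4320 to 6660 in young pods. No marker was at 0 on any array. The sum in young pods came mostly from BAN and DELTA-VPE, genes of the seed coat that ran the other way. BAN had signals of 46.8, 8.2 and 10.7 on the old arrays, and of 1657, 1289.1 and 2714.7 on the young arrays. DELTA-VPE had signals of 181.2, 41.3 and 29.7 on the old arrays, and of 2281.8, 2444 and 3758.4 on the young arrays. The storage and oil body genes were distributed differently. PAP85, a vicilin-like seed storage protein, had signals of 3700.8, 214.9 and 210.1 on old replicates 1, 2 and 3, and of 25.9, 14.9 and 15.8 on young replicates 1, 2 and 3. OLEO3, an oil body protein, had signals of 2218.5, 178.7 and 262.6 on the old arrays, and of 1099.3, 536.4 and 158.4 on the young arrays. AtLEA4-1, the remaining marker, had signals of 447.8, 190.1 and 107 on the old arrays, and of 21.9, 34.1 and 9 on the young arrays. On the young arrays OLEO3 was above the 40th percentile throughout and PAP85 under it throughout, and MSRB6 was above it on young replicate 1 only. The part of seed content in the MSRB6 signal was not tested. MSRB5 and MSRB3 also had their highest old signal on this array, and without it their log2 fold changes were 3.04 and 1.43.

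**Figure D2:**
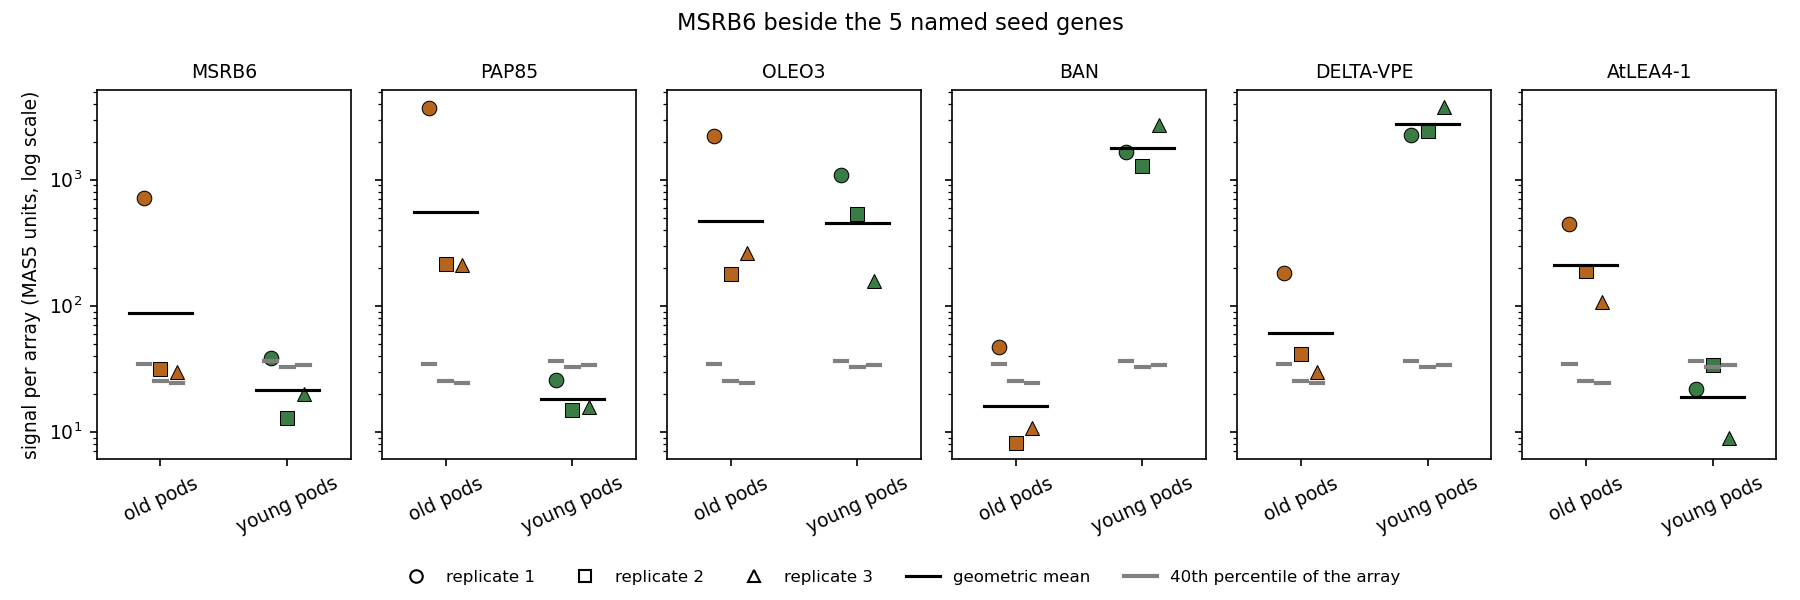
Signal of MSRB6 and of the 5 measured seed genes on each array, in MAS5 units on a log axis, with old pods left and young pods right in each panel, black lines for geometric means and grey lines for the 40th percentile of each array. In each panel old replicate 1 is the highest of the old arrays. The ratio over the next is 22.9 for MSRB6, 17.2 for PAP85 and 8.45 for OLEO3. It is 4.39 for DELTA-VPE, 4.37 for BAN and 2.36 for AtLEA4-1.

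MSRB9 (AT4G21850), of the second run, was dim on all arrays. Its signal was 25.5, 19.9 and 29.5 on old replicates 1, 2 and 3, against 10.4, 6.9 and 5.4 on young replicates 1, 2 and 3. The groups did not overlap, but old replicate 3 was the only array above its 40th percentile, so the gene entered no test in the main comparison. No fold is given for it, because its young signals were all under the percentile. The mean signal was 25 ± 4.82 in old pods and 7.57 ± 2.57 in young pods (SD, n = 3 arrays each).

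**Figure D3:**
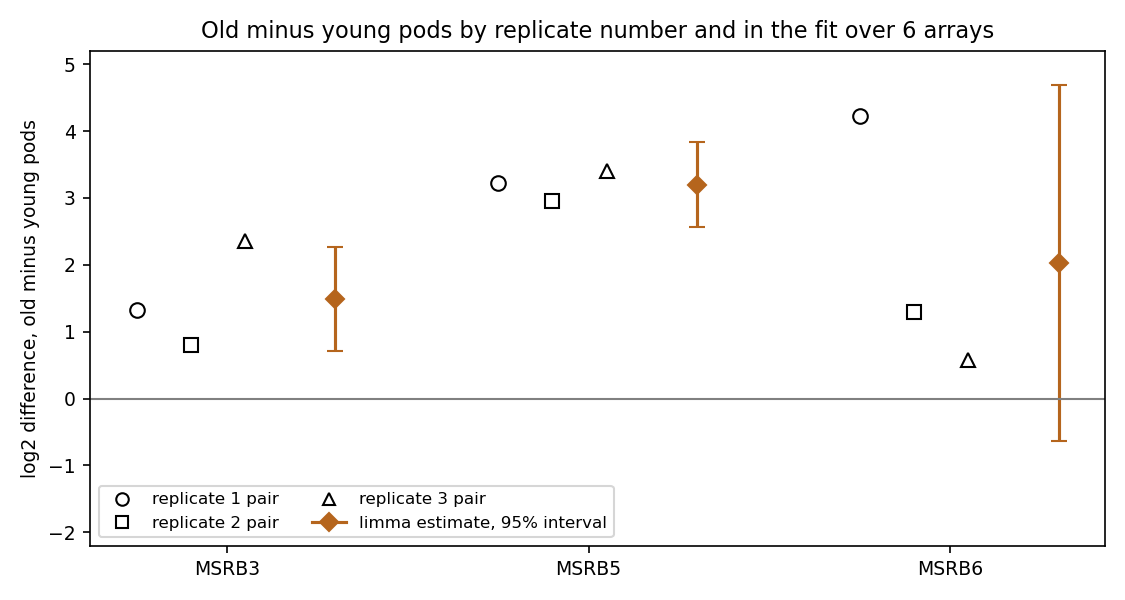
Difference between old and young pods on the log2 scale for the 3 tested MSRB genes, as the 3 pairs of equal replicate number (open symbols) and as the limma estimate over 6 arrays with its 95% interval (filled diamonds). The MSRB5 pairs lie close together at 2.96 to 3.4, those of MSRB6 run from 0.57 to 4.23, and the MSRB6 interval spans 0.

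Counted over the family, 3 of the 4 measured members had groups that did not overlap, each with old pods brighter, where 12.7% of all probe sets did so in that direction. Among the 3 tested members 2 did so, where 17.9% of tested probe sets did. Of the 3 tested members, 2 (MSRB5 and MSRB3) passed the threshold of limma adjusted p under 0.05 with old pods higher, where 9.68% of tested probe sets did so, and none passed with old pods lower, where 12.3% did. The median log2 fold change of the 3 was 2.03, and that of all tested probe sets was -0.08. This median is the value of MSRB6, which did not pass and was 0.51 without old replicate 1. Because MSRB5 was known to differ when the family was chosen, its part in these counts was set in advance. The counts are thus not independent evidence about the family. MSRB3 no longer passed without old replicate 2 (log2 fold change 1.59) or without old replicate 3 (1.46), and MSRB6 passed with replicate 1 entered as a batch term. That term left the log2 fold change of MSRB6 at 2.03. It is shared by the old and young replicate 1 arrays, so it does not take out the excess on old replicate 1 alone. After scaling on the hybridisation controls MSRB5 alone passed. With no filter on low signals MSRB9 passed as well, where 5.84% of probe sets were called higher in old pods.

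The genes that border the runs were read in the same way, and were looked up after the members' values were known. The pseudogene AT4G04820, which lies between MSRB4 and MSRB5, had signals of 1.4, 3.1 and 1 on the old arrays and of 3.2, 1.2 and 1.9 on the young arrays. It was thus under the 40th percentile on every array, beside a neighbour, MSRB5, that was above it on all of them. AT4G04790, the protein-coding gene before MSRB3, was under the percentile on every array as well, with signals of 12.6 to 27.6 in old pods and 12.2 to 29.1 in young pods. AT4G21820, the gene before MSRB7 in the second run, had signals of 0.7, 4.2 and 1.5 on the old arrays and of 23.1, 19.6 and 14.2 on the young arrays, dim throughout and opposite in direction to MSRB9. After MSRB2, AT4G21865 had signals of 12.6 to 37.2 in old pods and 15.3 to 25.3 in young pods. The next gene, AT4G21870, was above the percentile on every array and its groups overlapped, with signals of 50.8, 99.9 and 76 on the old arrays and of 64.6, 57.6 and 70.3 on the young arrays (log2 fold change 0.19, limma adjusted p = 0.673).

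The genes most like MSRB5 in pattern were found by distance. Each gene's log2 signals were centred on their mean over the 6 arrays, and the root mean square difference from MSRB5 was taken over 13512 other probe sets naming 1 gene. The 5 nearest were AT5G22530, AT1G02360, AT3G47540, UGT87A2 and AT2G04300, at distances of 0.242 to 0.328 on the log2 scale. AT3G47540 and UGT87A2 were bright enough to be tested. UGT87A2, a glycosyltransferase, had signals of 346.1, 322.5 and 309.4 on the old arrays and of 30.3, 30.6 and 31.2 on the young arrays, where all were under the percentile. AT3G47540 had signals of 274.3, 274.8 and 178.1 on the old arrays and of 41.6, 25.2 and 26.8 on the young arrays. The remaining 3 had old signals of 8.8 to 34.8 and young signals of 1.4 to 3.5, mostly under the percentile. Distances that rest on such dim signals are weakly measured. Of the relatives, MSRB9, dim and not tested, lay at 0.788, rank 143 by nearness to MSRB5. Of the tested relatives, MSRB3 lay at 0.885, rank 211, and MSRB6 at 1.56, rank 3366. These distances use the same old and young signals that led to the choice of the family. The nearest genes and the ranks are thus a description and no independent evidence of likeness within the family.

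The enzymes that share the reaction or feed it were read from 6 lists of 104 genes: MSRA enzymes, thioredoxins, thioredoxin reductases, glutaredoxins, enzymes that make or use methionine, and enzymes that remove reactive oxygen. A named probe set existed for 28 of the 104 and 27 were tested. Of these 4 were higher and 1 was lower in old pods (limma, adjusted p under 0.05), which is 18.5%, against 22.0% of all tested probe sets. The share of the lists was thus close to that of the array as a whole. Their median log2 fold change was 0.04, beside -0.08 for all tested probe sets. Several list members carry a locus number alone in the reference and were placed on a list without a name to check there.

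MSRA5 was the 1 of 5 MSRA genes measured, and it did not follow MSRB5. Its signal was 48.2, 49 and 57.3 on the old arrays and 91.1, 37.9 and 62.9 on the young arrays. The groups overlapped, with young replicate 1 the highest, and the log2 fold change was -0.23 (SE 0.332, limma adjusted p = 0.666). The direction turned without young replicate 1, at 0.07.

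None of the 8 tested thioredoxins passed the threshold, and their median log2 fold change was 0.04. ATHM2, the plastid thioredoxin m2, had signals of 1087, 1222.2 and 1218.2 on the old arrays and of 2014.4, 1599.3 and 1342.5 on the young arrays. All old arrays lay below all young arrays, and the difference of -0.47 did not pass (SE 0.213, limma adjusted p = 0.154). THX, the plastid thioredoxin x, was at 0.33 (limma adjusted p = 0.437). Neither thioredoxin reductase on the list passed: NTRC, the plastid enzyme that joins a reductase and a thioredoxin domain, was at -0.31 (limma adjusted p = 0.292), and AT2G04700 was at -0.12 (limma adjusted p = 0.731).

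Of the 5 tested glutaredoxins 2 rose in old pods and none fell, where 9.68% of tested probe sets rose and 12.3% fell. GRXC1 had signals of 573.7, 540 and 504.8 on the old arrays and of 201.4, 286.7 and 221.7 on the young arrays. Its groups did not overlap, and it rose 2.3-fold (log2 fold change 1.2, SE 0.194, limma adjusted p = 0.00468). GRXC2 had signals of 2349.7, 1773.8 and 1532.3 on the old arrays and of 1050.8, 752.9 and 687.1 on the young arrays. It too separated the groups, and its log2 fold change was 1.18 (SE 0.25, limma adjusted p = 0.0136), a call lost without young replicate 2 (limma adjusted p = 0.0563). The other 3 did not pass, with log2 fold changes of 0.73 for AT1G77370, 0.13 for AT5G20500 and 0.00 for AT2G20270. With the replicate number as a block AT1G77370 passed (limma adjusted p = 0.033).

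Among 3 tested genes of methionine metabolism none passed. MGL, methionine gamma-lyase, which breaks methionine down, had signals of 276.4, 29.7 and 38.2 on the old arrays and of 391.3, 246 and 302.9 on the young arrays. Old replicates 2 and 3 were low and old replicate 1 was within the young range, and the log2 fold change was -2.18 (SE 0.754, limma adjusted p = 0.0756). With the replicate number as a block MGL passed (limma adjusted p = 0.03), and without old replicate 1 its log2 fold change was -3.19 (limma adjusted p = 0.000376). CBL, cystathionine beta-lyase of methionine synthesis, was at 0.49, and MMT, which makes S-methylmethionine, was at 0.30.

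Of the 8 tested enzymes that remove reactive oxygen 2 rose and 1 fell, against 9.68% and 12.3% of tested probe sets. TAPX, the thylakoid ascorbate peroxidase, had signals of 72.2, 90 and 78.3 on the old arrays and of 199.8, 276.7 and 205.7 on the young arrays. Its groups were well apart and its log2 fold change was -1.49 (SE 0.204, limma adjusted p = 0.00255), beside the lower summed signal of photosynthetic genes in old pods given above, whose part in it was not tested. GR1, a glutathione reductase, had signals of 602.6, 739.3 and 808.4 on the old arrays and of 436.2, 294.8 and 247.9 on the young arrays. Its log2 fold change was 1.17 (SE 0.249, limma adjusted p = 0.0143), a call lost without old replicate 2 or 3 or young replicate 2 (limma adjusted p up to 0.0569). ATMDAR2, a monodehydroascorbate reductase, had signals of 161.6, 160.7 and 157.5 on the old arrays and of 111.4, 66.7 and 98.1 on the young arrays. Its rise of 0.83 on the log2 scale (SE 0.227, limma adjusted p = 0.0354) did not pass when any array but young replicate 1 was left out (limma adjusted p up to 0.108). The 5 enzymes that did not pass ran from -0.68 for AT3G11630 to 0.70 for PRXIIF, a mitochondrial peroxiredoxin. Scaling on the hybridisation controls ended every call in these lists, at log2 fold changes of 1.09 for GRXC1, 1.07 for GRXC2, -1.61 for TAPX, 1.05 for GR1 and 0.72 for ATMDAR2.

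**Figure D4:**
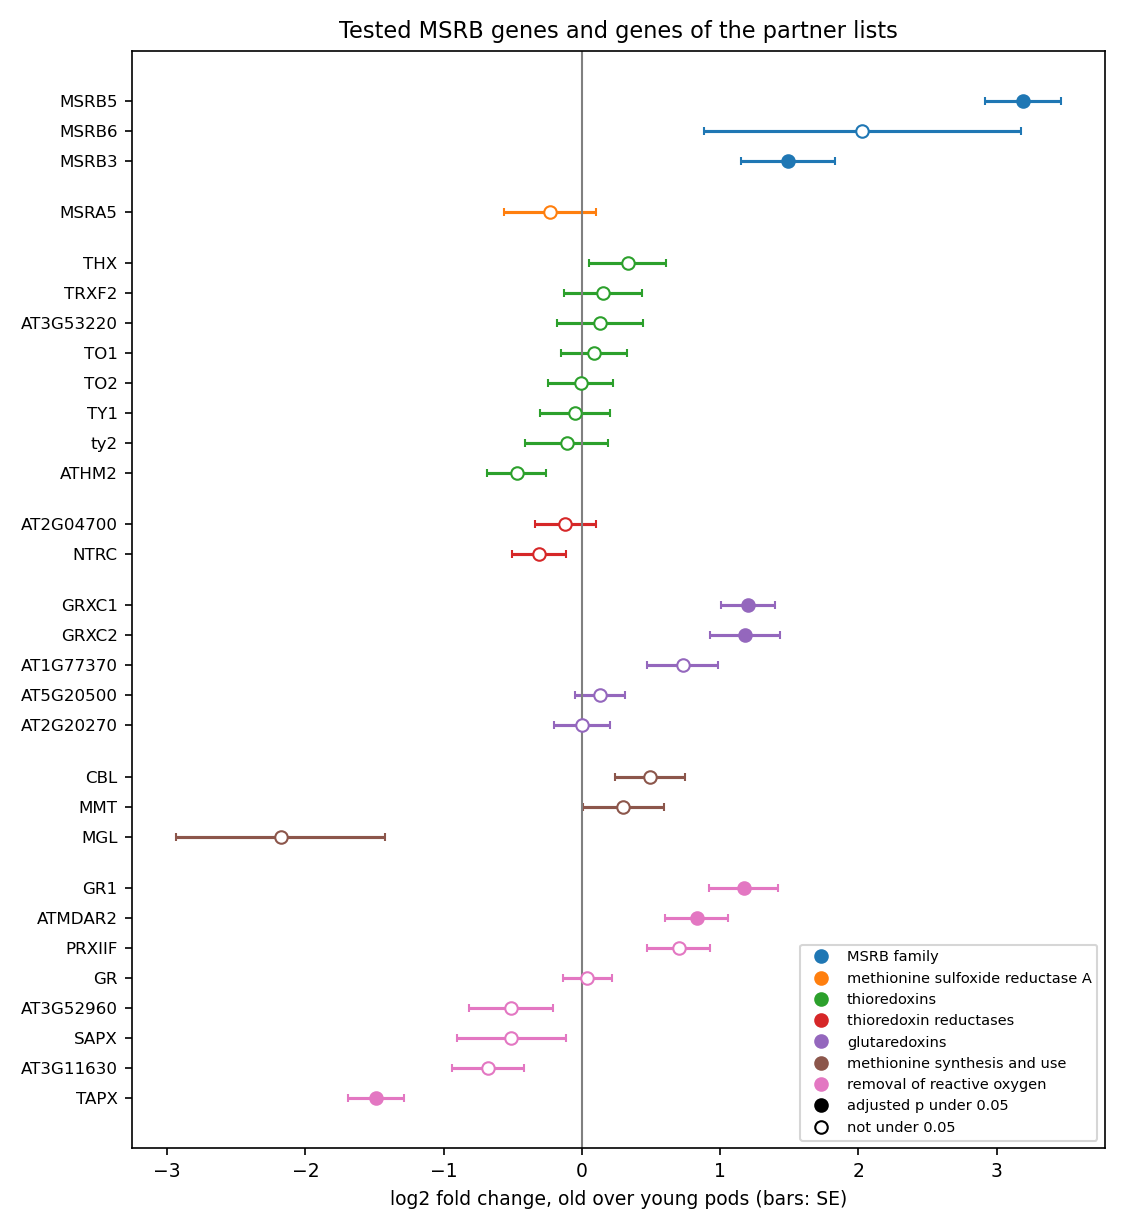
Log2 fold change of old over young pods, with SE bars, for the 3 tested MSRB genes and the 27 tested genes of the partner lists, filled where the limma adjusted p is under 0.05. MSRB5 at 3.19 lies furthest to the right, GRXC1 and GRXC2 at 1.2 and 1.18 are the furthest right of the partners, MGL at -2.18 is the furthest left, and the thioredoxins lie between -0.47 and 0.33.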

How the data were processed

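The authors deposited 1 linear intensity for each probe set and array. The submitters' processing notes name MAS5 without a version, and detection calls and a genome build were not used here. Trimming 2% at both ends left a mean of 100 on every array, so a change shared by most transcripts would not show. Of 22746 probe sets other than controls, the platform annotation names 1 gene for 13513, several for 503 and none for 8730, and gene numbers were looked up in the TAIR10.1 reference table.

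Intensities were raised to at least 0.1 and taken as log2. Probe sets were tested if at least 3 arrays exceeded their own 40th percentile. Old and young pods were compared over all tested probe sets by limma (version 3.58.1, R 4.3.3) using lmFit, then eBayes with a variance trend, with two-sided p-values adjusted by the Benjamini-Hochberg method. As a check of the code, the fit was run on simulated independent values with known fold changes. These values held no offset of replicate 1 and no pairing, so the check does not cover such features of the arrays. The members and lists were chosen with earlier results of these data known. Named genes were all measured members, up to 6 called genes per list or the 2 brightest where none passed, and the 5 nearest to MSRB5; others are given as ranges or as list members that did not pass. Arrays of equal replicate number shared part of their residual variation (correlations of 0.286, 0.113 and 0.119, all over the 0.1 set as the mark of pairing). Pairs of unequal number were not compared, so pairing of samples and an offset shared by the replicate 1 arrays cannot be told apart here. The main fit held no term for the replicate number, which was entered as a block in an alternative. The number of arrays limits the precision.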

Additional observations from a re-analysis of the deposited data

How the results depend on the processing

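The log2 fold change of MSRB5 was 2.94 to 3.35 over 17 alternatives, in the comparison that led to its choice, so this range is no independent support. That of MSRB3 was 1.10 to 1.74, that of MSRB6 0.51 to 2.81, and no member reversed. The hybridisation controls had a mean log2 signal of 10.41 and 10.13 on the replicate 1 arrays, and of 8.42 to 8.92 on the others. Scaling on them therefore lowered each replicate 1 array against the rest of its group. It moved the median of all tested probe sets by -0.115 on the log2 scale. This scaling gave 599 calls against 3145, with 1 member and 0 list genes past the threshold. The ordinary two-sample test gave 1360, with 1 member and 2 list genes. The batch term for replicate 1 gave 9 list genes in place of 5. Leaving out 1 array gave 1736 to 3602 calls, 1 to 2 members and 2 to 6 list genes, with the fewest calls without old replicate 2 (1736), young replicate 2 (1812), young replicate 3 (1975) and old replicate 3 (2047). List genes numbered 3 without old replicate 3 and 2 without young replicate 2, and members 1 without old replicate 2 or 3. With the replicate number as a block 3480 probe sets, 2 members and 7 list genes passed, with all 5 list calls among the 7 and MGL and AT1G77370 added. Without a filter MSRB9 passed as well, which gave 3 members where 5.84% of 22746 probe sets were called higher. MSRA5 reversed with replicates 2 and 3 alone (0.12) and ran from -0.56 to 0.07 when 1 array was left out, positive without young replicate 1. AT2G04700 ran from -0.28 to 0.02, positive without old replicate 1. The cause of these shifts was not tested. No gene named here had several probe sets, so that alternative gave no value. Signals near the 40th percentile, as for MSRB6 and MSRB9, are weakly measured.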
